A study of Rattus norvegicus with 12 samples.

Results

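The genes described here encode the DNA replication machinery, 43 named genes of the 33294 rows in a gene count table from rat PAC1 cells, a line derived from pulmonary artery smooth muscle. They were chosen by name: the MCM helicase, the proteins that recognise origins and license them, the helicase activators, the clamp and its loader, the replicative polymerases and primase, the single-strand binding complex, flap removal and ligation, and 3 enzymes of deoxynucleotide supply. All 43 were in the table, passed the filter on low counts and were tested in every comparison, with D1 group means between 6.67 (Pole2) and 185 (Rrm1) counts per 1e+06 counts (CPM). These levels are scaled for library size and composition but not for transcript length, so a level is compared between groups and never between genes.

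Poly(A) RNA was sequenced from 4 groups of 3 libraries each. D1 was differentiated PAC1 cells (PAC1-D, passaged weekly at 1:10) given control siRNA, and P was proliferative PAC1 cells (PAC1-P, passaged at 1:20 more often) given the same kind of control siRNA. RBPMS KD1 was PAC1-D cells given siRNA against Rbpms, and MBNL KD was PAC1-D cells given siRNAs against Mbnl1 and Mbnl2 together, whose libraries carry the shorter title MBNL1 KD but are labelled MBNL1+2-KD. All groups were kept in medium with 10% serum and transfected again with 90 pmol of siRNA, after 24 h and with harvest 48 h later by the labels. The study's methods give a later schedule. All 4 groups are cultures of 1 cell line, and the 3 libraries of a group are called biological replicates in the methods without saying how the cultures were separated. The p-values therefore measure the spread between these cultures.

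Replication starts when the origin recognition complex, with Cdc6 and Cdt1, loads the ring of Mcm2 to Mcm7 onto DNA in G1. Cdc45, the GINS complex and Mcm10 turn that ring into a working helicase in S phase, DNA polymerase alpha with primase lays down primers, and polymerases epsilon and delta extend them on the Pcna clamp. Many of these genes are transcribed under E2F factors as cells pass from G1 into S, while vascular smooth muscle cells in the contractile state divide little and re-enter the cycle when they dedifferentiate.

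Promoter sequence, which had no part in choosing the genes, was read for the 36 members matched by symbol in a RefSeq table of the GRCr8 rat assembly, from 250 bases before the annotated start to 50 bases after it. The 7 others (Mcm4, Gins4, Orc1, Orc4, Cdc6, Rpa3 and Rrm2) had no entry there. An 8-letter E2F motif (TTTCCCGC, TTTGGCGC, TTTCGCGC or TTTGCCGC, either strand) was present in 18 of the 36 promoters, or 50.0%. The same letters were found in 2.25% of all 27457 promoters in the table. They were in 3.78% of the 11991 promoters of genes tested in P against D1, called tested genes below. The shorter E2F core TTCCCGC, which overlaps the first of these motifs, was in 15 promoters (41.67%, against 4.47% of all promoters and 7.7% of those of tested genes). CCAAT, the NF-Y box, was in 21 (58.33%, against 37.74% and 37.69%). The Sp1 box GGGCGG was in 22 (61.11%, against 34.89% and 58.14%), so that its share was near that of the tested genes, and the CHR element TTTGAA was in 3 (8.33%, against 18.07% and 12.51%). These are matches of letters in a fixed window and not shown sites of binding.

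Printed here are 4 of these promoters, whose genes carry the main results: Mcm6 and Fen1 fell furthest in MBNL KD among the members with a promoter, Tyms rose most in RBPMS KD1, and Pola1 was 1 of the 2 members that rose past both thresholds in P. Capitals mark E2F letters (the 8-letter motifs and the core) and the NF-Y box, which reads ATTGG on the strand shown. Each runs 5′ to 3′ in the direction of the gene. The Mcm6 window is chr13:42404303-42404602 on the minus strand, that of Fen1 chr1:216274347-216274646 on the minus strand, that of Tyms chr9:120776034-120776333 on the minus strand and that of Pola1 chrX:62342306-62342605 on the minus strand, all in GRCr8.
Mcm6: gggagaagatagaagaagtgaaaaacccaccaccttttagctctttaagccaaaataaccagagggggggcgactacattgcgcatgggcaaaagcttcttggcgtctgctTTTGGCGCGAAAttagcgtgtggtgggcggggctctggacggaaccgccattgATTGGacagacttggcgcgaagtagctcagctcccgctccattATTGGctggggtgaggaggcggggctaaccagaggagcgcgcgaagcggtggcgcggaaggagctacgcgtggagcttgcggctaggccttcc
Fen1: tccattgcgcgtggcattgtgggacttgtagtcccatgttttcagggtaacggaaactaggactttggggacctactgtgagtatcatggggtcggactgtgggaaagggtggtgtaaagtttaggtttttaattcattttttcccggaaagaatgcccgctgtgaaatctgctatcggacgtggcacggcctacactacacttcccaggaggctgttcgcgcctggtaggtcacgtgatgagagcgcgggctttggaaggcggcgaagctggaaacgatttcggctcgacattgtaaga
Tyms: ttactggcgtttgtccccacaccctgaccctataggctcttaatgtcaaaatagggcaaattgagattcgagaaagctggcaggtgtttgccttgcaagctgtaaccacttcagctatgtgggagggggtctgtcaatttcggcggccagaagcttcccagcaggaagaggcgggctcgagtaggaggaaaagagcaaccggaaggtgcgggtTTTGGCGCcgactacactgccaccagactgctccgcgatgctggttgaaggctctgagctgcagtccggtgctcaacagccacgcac
Pola1: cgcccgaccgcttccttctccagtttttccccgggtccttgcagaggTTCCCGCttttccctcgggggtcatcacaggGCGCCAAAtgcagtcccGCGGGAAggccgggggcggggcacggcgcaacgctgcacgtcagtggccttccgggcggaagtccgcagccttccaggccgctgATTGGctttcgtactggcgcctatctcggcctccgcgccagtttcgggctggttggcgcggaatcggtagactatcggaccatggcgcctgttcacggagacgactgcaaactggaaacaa
Mcm6 held 2 overlapping E2F motifs, from base -139 to base -128 counted from the start, and 2 NF-Y boxes. Tyms held 1 E2F motif, from base -37 to base -30, and Pola1 held 1 E2F motif, 2 cores and 1 NF-Y box. Fen1 held none of these letters. In MBNL KD against D1 the 18 members with an 8-letter E2F motif had a median log2 fold change of -0.39 (range -1.92 to 0.37) and the 18 without it a median of -0.32 (range -1.01 to 0.67). In P against D1 the medians were 0.31 and 0.17, and in RBPMS KD1 they were -0.21 and -0.22, so that in each comparison the ranges of members with and without the letters overlapped. For the NF-Y box, the 21 members with it and the 15 without it had medians of 0.20 and 0.23 in P, -0.25 and -0.11 in RBPMS KD1 and -0.46 and -0.23 in MBNL KD, again with overlapping ranges. No test was made of these medians.

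Between P and D1, 23 of the 43 members were higher in P, 12 were lower and 8 did not pass, at an adjusted p under 0.05 (edgeR's quasi-likelihood test, adjusted over all 16814 genes tested). Over all tested genes, 40.4% were higher and 37.6% lower by the same rule, against 53.5% and 27.9% of the members. The rises were small: 2 members, Prim1 and Pola1, passed an absolute log2 fold change of 1 as well, where 16.4% of all genes were higher past both thresholds and 11.2% lower. None was lower past both, since no member reached a log2 fold change of -1 at any p, nor did any with DESeq2 or limma. The median member log2 fold change was 0.13 with a range from -0.69 to 1.26, beside a median of 0.02 over all genes tested.

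In RBPMS KD1 against D1, 31 members were lower, 2 were higher and 10 did not pass. That is 72.1% lower and 4.65% higher, where 29.5% of the 15904 genes tested were lower and 29.5% were higher. No member reached the fold threshold in either direction at any p, with edgeR, DESeq2 or limma, whereas 3.06% of all genes were higher past both thresholds and 1.62% lower. The member median of the log2 fold change was -0.22, between extremes of -0.70 (Pole) and 0.64 (Tyms). The median over all genes was 0.0043.

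In MBNL KD against D1, 33 members were lower, 7 were higher and 3 (Orc1, Rfc4 and Rpa3) did not pass. That is 76.7% lower and 16.3% higher, where 33.7% of the 16053 genes tested were lower and 33.8% higher. Mcm6, Rrm2 and Fen1 were lower past both thresholds, against 4.14% of all genes lower and 6.1% higher. None was higher past both, since no member reached a log2 fold change of 1 at any p with edgeR, DESeq2 or limma. The member median of the log2 fold change was -0.31, beside 0.01 over all genes, and the extremes were -1.92 (Mcm6) and 0.67 (Orc2). The 3 comparisons share the D1 libraries, so a D1 value that is high or low enters each of them.

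**Figure D1:**
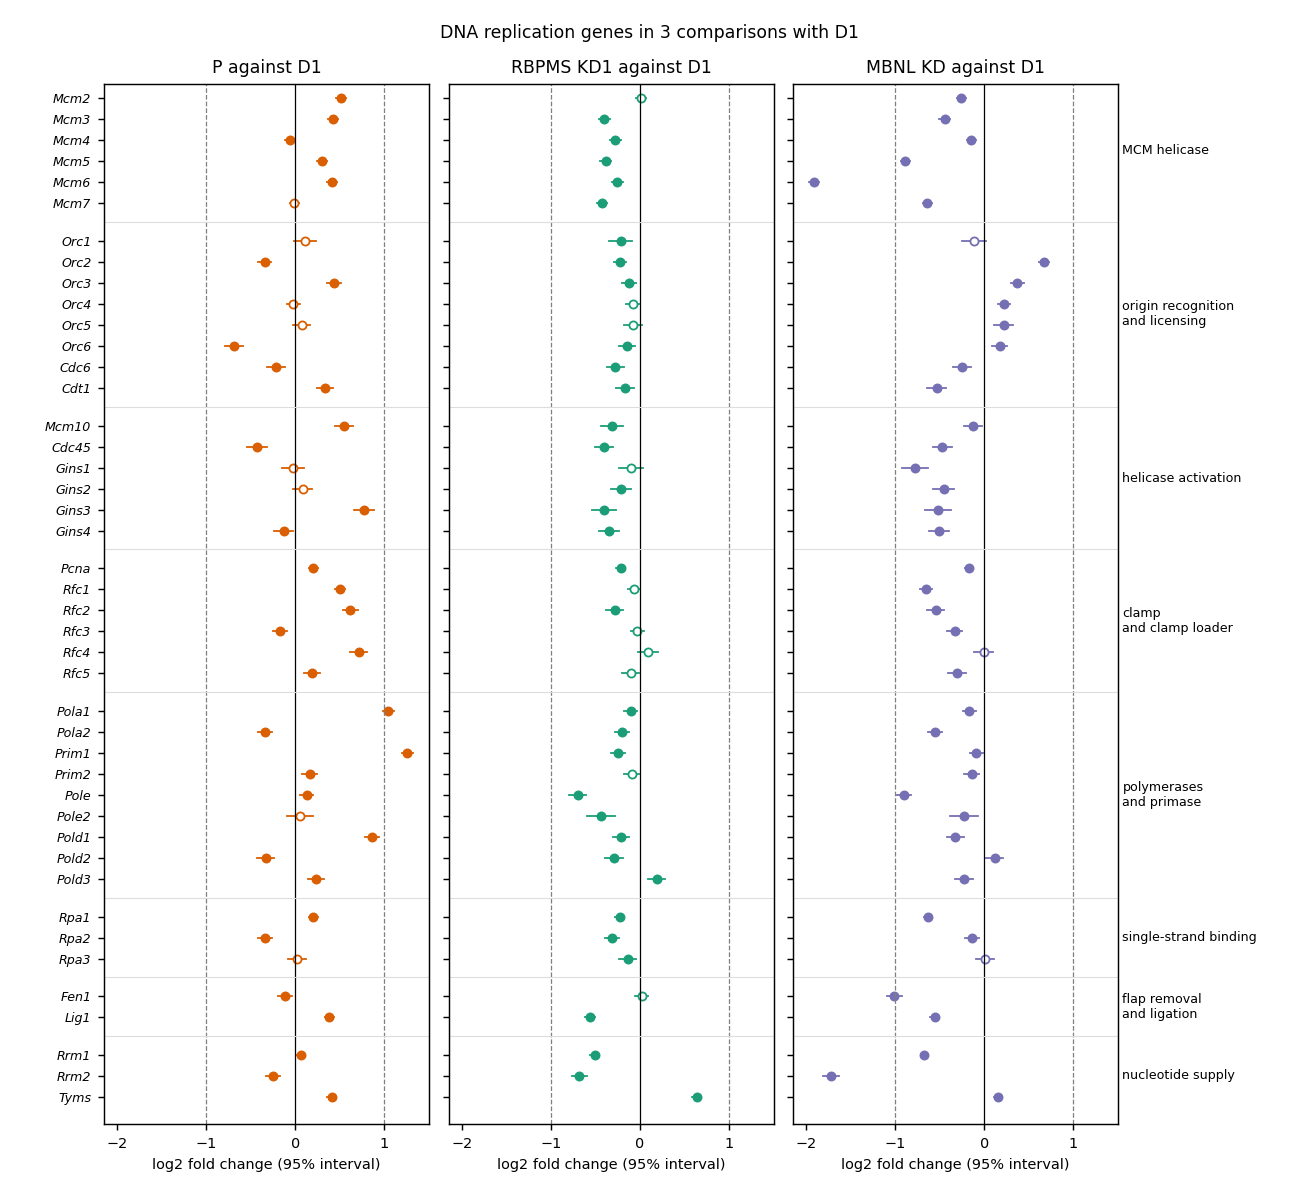
Log2 fold change of each of the 43 genes (dots, with 95% intervals from the edgeR fit) in P, RBPMS KD1 and MBNL KD against D1, 3 libraries a group, ordered by role. Filled dots passed an adjusted p under 0.05, open dots did not, and dashed lines mark a log2 fold change of 1 in either direction. Prim1 and Pola1 lie beyond the line in P, no gene does in RBPMS KD1, and Mcm6, Rrm2 and Fen1 do in MBNL KD, where Orc2 to Orc6 lie to the right of 0.

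The libraries matched their labels at the targeted genes: Rbpms stood at 153, 156 and 141 CPM in D1 and 37.2, 37.1 and 38.3 CPM in RBPMS KD1, and Mbnl1 and Mbnl2 stood at 23.8% and 29.7% of D1 in MBNL KD. The summed level of 8 smooth muscle markers was 9803 to 10304 CPM in D1, 211 to 224 CPM in P, 4886 to 5060 CPM in RBPMS KD1 and 7828 to 7944 CPM in MBNL KD. It came mostly from Acta2 and Tagln in D1 and the knockdowns. In P the largest parts were Tagln (mean 62.1 CPM), Smtn (57.4 CPM) and Acta2 (46.2 CPM). All 8 were detected in every group. A proliferation list (Mki67, Top2a, Ccnb1, Cdk1, Bub1 and Plk1) summed to 712 to 733 CPM in D1, 861 to 895 CPM in P, 572 to 598 CPM in RBPMS KD1 and 431 to 433 CPM in MBNL KD. Of its 6 genes, 4 were higher and 0 lower in P, where 40.4% of all genes tested were higher and 37.6% lower. All 6 were lower in RBPMS KD1 and in MBNL KD, where 29.5% and 33.7% of all genes were lower. In MBNL KD 2 of them (Plk1, -1.25, and Ccnb1, -1.02) were lower past both thresholds, against 4.14% of all genes. Top2a is also counted among the other replication genes. This list moved with the replication genes, and its part in their changes was not tested. In these bulk libraries, a change in the share of cells that express these genes and a change in their RNA per cell cannot be told apart. All 8 smooth muscle markers were lower in P and in RBPMS KD1, whereas in MBNL KD 6 were lower and 2, Myh11 (0.54) and Cnn1 (0.12), were higher.

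Endothelial markers were low but did not stay level. The 5 summed to at most 0.816 CPM in D1, 5.43 to 6.76 CPM in P, 1.82 to 1.84 CPM in RBPMS KD1 and 0.937 to 1.41 CPM in MBNL KD. Tek and Vwf were higher past both thresholds in P and in RBPMS KD1 (1.32 and 1.22 there) and did not pass in MBNL KD. Cdh5 and Kdr were at 0 in every D1 and knockdown library, and Cdh5 was above 1 CPM in each P library. Of the leukocyte markers, Ptprc was at most 0.0427 CPM in any library and at 0 in D1, Cd3e was at most 0.235 CPM in any library and higher in P (adjusted p = 0.0023), and Cd68 was 0.547 to 1.01 CPM over all libraries and did not pass in any comparison. Of the 4 epithelial markers, Epcam and Cdh1 were at 0 in D1, and the sum, nearly all Krt8, was 35.5 to 37.3 CPM in D1, 80.3 to 83.3 CPM in P, 38.8 to 41.4 CPM in RBPMS KD1 and 53.7 to 54.6 CPM in MBNL KD. The 4 fibroblast markers, which smooth muscle cells also express, summed to 14387 to 15103 CPM in D1, 17929 to 19985 CPM in P, 20026 to 21304 CPM in RBPMS KD1 and 13019 to 13392 CPM in MBNL KD, nearly all of it Col1a1. The others moved apart: Dcn was higher in RBPMS KD1 (0.70) and lower in MBNL KD (-1.24), Pdgfra was higher in both (0.91 and 0.21), and Lum was lower in both (-0.38 and -0.65). The part of these lists in the results was not tested.

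The MCM genes, which encode the ring-shaped replicative helicase, separated the groups most widely at Mcm6. Mcm6 stood at 111, 106 and 106 CPM in D1, 142, 147 and 142 CPM in P, 92.1, 88.2 and 91 CPM in RBPMS KD1 and 28.6, 28.4 and 28.7 CPM in MBNL KD. The 4 groups did not overlap, with P highest and MBNL KD far below the rest. In MBNL KD it fell to 26.5% of the D1 level (log2 fold change -1.92 ± 0.031, adjusted p = 5.6e-29, where the value after ± is the standard error), the largest fall of any member, while the fall in RBPMS KD1 was to 83.9% (log2 fold change -0.25 ± 0.029, adjusted p = 1.5e-08). Mcm5 stood at 104, 101 and 102 CPM in D1 and 55.4, 56.1 and 54.6 CPM in MBNL KD, 54.1% of D1 (log2 fold change -0.89 ± 0.027, adjusted p = 2.5e-22). Its levels in P and RBPMS KD1 were 126, 129.9 and 124 CPM and 81.4, 75.2 and 79 CPM, on either side of D1 without overlap.

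The subunits of this ring are present in equal numbers in the protein complex, but their transcripts did not move together. All 6 fell in MBNL KD, with a median log2 fold change of -0.54, yet Mcm4 fell only to 90.4% of D1 (-0.15 ± 0.025) and Mcm2 to 83.6%, with Mcm3 at 73.5% and Mcm7 at 64.2%. In RBPMS KD1, 5 of 6 fell, to between 74.3% (Mcm7) and 83.9% (Mcm6) of D1, and Mcm2 gave 0.01 ± 0.029 with an adjusted p of 0.74. In P, Mcm2, Mcm3, Mcm5 and Mcm6 rose to between 123% and 142% of D1. Mcm4 passed there on the lower side at 95.8% of D1 (adjusted p = 0.041), a call lost under 12 of 16 alternatives, a stricter threshold of 0.01 among them, with adjusted p up to 0.51. Mcm7, whose gene also hosts microRNAs, stood at 99.2% (-0.01 ± 0.027, adjusted p = 0.69).

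Of the 8 origin recognition and licensing genes, 5 (Orc2 to Orc6) were higher in MBNL KD, 2 (Cdc6 and Cdt1) were lower and 1 (Orc1) did not pass, with a median log2 fold change of 0.19. Orc2, a core subunit of the complex that marks origins, stood at 44.3, 43.2 and 42.1 CPM in D1 and 68.7, 68.4 and 68.8 CPM in MBNL KD. It rose to 159% of D1 (log2 fold change 0.67 ± 0.031, adjusted p = 7.1e-18), and the 3 MBNL KD libraries lay within 1 CPM of each other, above every library of the other groups. The same gene was lower in P, at 33.7, 34.3 and 34.4 CPM, and in RBPMS KD1, at 36.7, 37.2 and 37.1 CPM. Orc3, its partner subunit, stood at 27, 27 and 27.1 CPM in D1 and 33.5, 35.6 and 35.7 CPM in MBNL KD (log2 fold change 0.37 ± 0.039, adjusted p = 1.4e-09), and was also higher in P at 38, 34.9 and 36.9 CPM (log2 fold change 0.43 ± 0.040, adjusted p = 1e-11). Unlike Orc2, it was above all D1 libraries in both groups.

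Orc4, Orc5 and Orc6, the remaining subunits, rose less in MBNL KD. Orc4 stood at 36.3, 38.1 and 36.9 CPM in D1 and 44, 41.9 and 43.8 CPM in MBNL KD (log2 fold change 0.22 ± 0.036, adjusted p = 2.5e-06). Orc5 stood at 18, 17.7 and 16.8 CPM and 21.2, 18.8 and 20.9 CPM (log2 fold change 0.21 ± 0.052, adjusted p = 0.00062). Orc6, which binds the complex more loosely than the others, stood at 20.7, 20.6 and 21.1 CPM and 22.8, 24.4 and 23 CPM (log2 fold change 0.17 ± 0.045, adjusted p = 0.0015). For each of the 3 the MBNL KD libraries lay above the D1 libraries, by small margins. In P, Orc6 showed the largest fall of any member, to 12.6, 12.5 and 13.7 CPM or 61.9% of D1 (log2 fold change -0.69 ± 0.051, adjusted p = 5.1e-14), whereas Orc4 and Orc5 did not pass there (adjusted p = 0.59 and 0.21).

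In MBNL KD none of Orc1, Cdc6 and Cdt1, the regulated members of this group, was higher, unlike Orc2 to Orc6. In RBPMS KD1 all 8 genes of the group lay below 0, with log2 fold changes from -0.27 to -0.08. In P, genes of both kinds moved in either direction, and the difference between the kinds was not tested. Orc1, the ATPase subunit whose level rises and falls with the cell cycle in many cells, was lower in RBPMS KD1 (-0.22 ± 0.065, adjusted p = 0.0052) and did not pass in MBNL KD (-0.12 ± 0.070, adjusted p = 0.15) or in P. Cdc6, the loading ATPase, was lower in all 3 comparisons, at 86% of D1 in P, 82.7% in RBPMS KD1 and 84.1% in MBNL KD. Cdt1, which brings the helicase to the origin, rose to 126% of D1 in P and fell to 88.8% in RBPMS KD1 and 69% in MBNL KD.

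**Figure D2:**
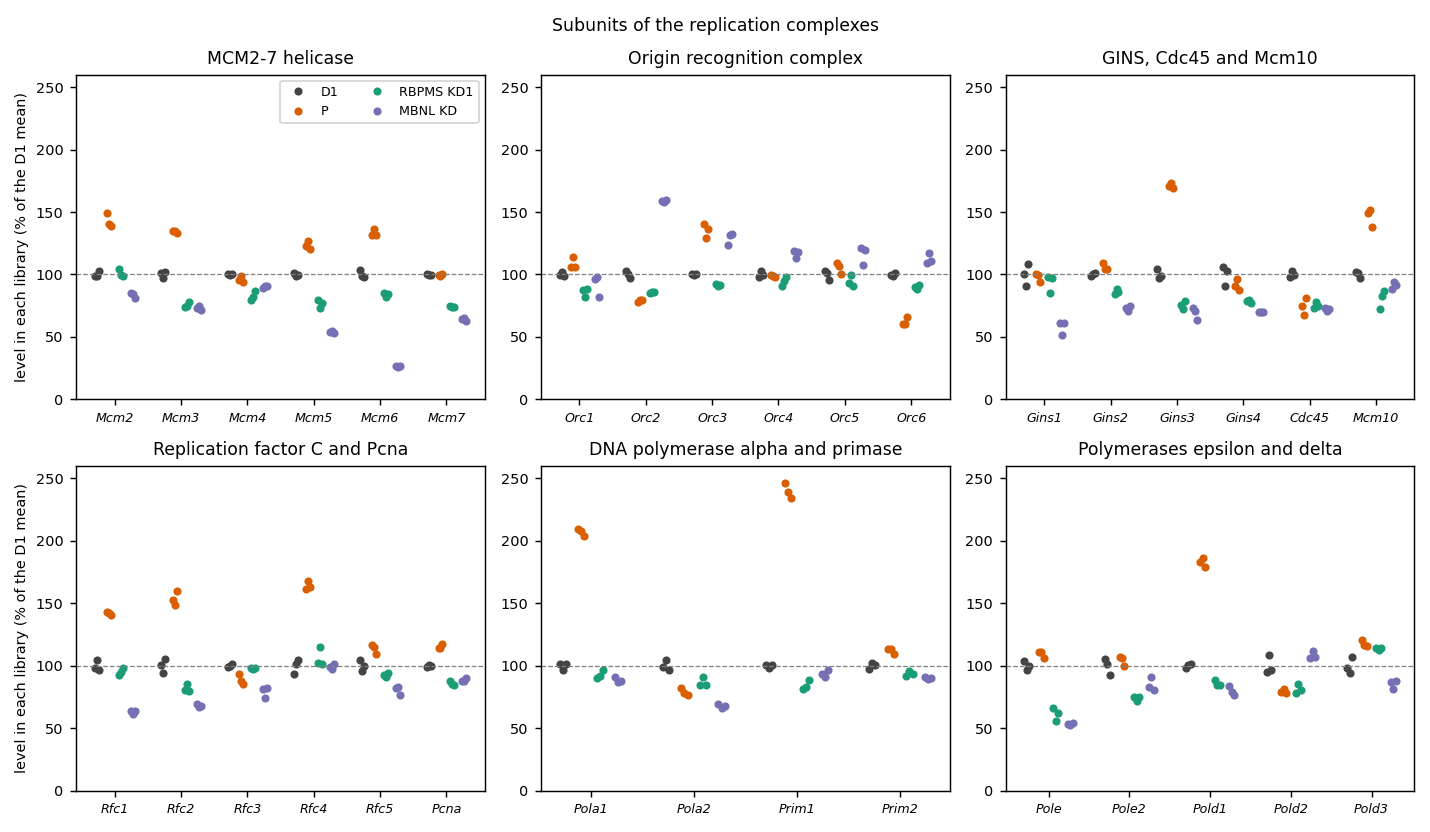
Level of each subunit in each of the 12 libraries (dots) as a percentage of the D1 mean of that gene, in 6 groups of genes, with the dashed line at 100%. In MBNL KD (purple) the MCM genes lie below the line and Orc2 to Orc6 above it, and in P (orange) Prim1 and Pola1 lie near 239% and 206% while Pola2 lies below 100%.

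Helicase activation genes were all on the lower side in MBNL KD, 6 of 6, with a median log2 fold change of -0.49, although the call of Mcm10 (adjusted p = 0.032) was lost under 7 of 16 alternatives with adjusted p up to 0.11. Gins1, a subunit of the GINS complex that joins Cdc45 to the helicase, stood at 11.8, 10.7 and 12.7 CPM in D1, 11.5, 10.0 and 11.4 CPM in RBPMS KD1 and 7.15, 6.08 and 7.23 CPM in MBNL KD. The MBNL KD libraries were below all others, at 58.1% of D1 (log2 fold change -0.78 ± 0.075, adjusted p = 1.8e-10), while RBPMS KD1 overlapped D1 (-0.10 ± 0.068, adjusted p = 0.23). The other GINS genes fell in MBNL KD to 72.9% (Gins2), 69.6% (Gins3) and 70.0% (Gins4) of D1, and in RBPMS KD1 to 86.6%, 75.7% and 78.5%.

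In P the GINS genes parted, although their proteins form a single complex. Gins3 stood at 9.34, 8.70 and 8.82 CPM in D1 and 15.3, 15.5 and 15.1 CPM in P, 170.5% of D1 (log2 fold change 0.77 ± 0.058, adjusted p = 6.5e-14). Gins4 was lower (-0.13 ± 0.056, adjusted p = 0.032), a call lost under 8 of 16 alternatives with adjusted p up to 0.17, and Gins1 and Gins2 did not pass. Cdc45, the GINS partner, stood at 17.1, 17.9 and 17.4 CPM in D1 and 13, 11.8 and 14.1 CPM in P, a fall to 74.1% (log2 fold change -0.43 ± 0.058, adjusted p = 4.1e-08) with no overlap. It was also lower in both knockdowns, at 75.4% of D1 in RBPMS KD1 and 72.1% in MBNL KD. Mcm10, which is needed to start the helicase, rose to 146% of D1 in P and fell to 80.5% in RBPMS KD1 and 91.4% in MBNL KD.

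Among the clamp and clamp loader genes, 5 of 6 rose in P and 1 fell. Rfc4, a small subunit of the loader, stood at 15.5, 16.8 and 17.3 CPM in D1 and 26.6, 27.7 and 27 CPM in P (log2 fold change 0.71 ± 0.047, adjusted p = 3.1e-15), with no overlap, and did not pass in RBPMS KD1 (0.09 ± 0.056, adjusted p = 0.19) or in MBNL KD (-0.01 ± 0.053, adjusted p = 0.88). Rfc1, the large subunit, rose to 141% of D1 in P and fell to 63.4% in MBNL KD, and Rfc2 rose to 153% and fell to 68.3%. Rfc3 was the member that fell in P, to 88.5%, while Rfc5 rose to 113%. Pcna, the sliding clamp and a common proliferation marker, moved little: it was at 115% of D1 in P, 86.1% in RBPMS KD1 and 88.7% in MBNL KD, each past an adjusted p of 0.05. In RBPMS KD1 only Pcna and Rfc2 of these 6 passed, both on the lower side.

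The largest rises in P were in the enzyme that starts each new strand. Prim1, the catalytic subunit of primase, stood at 35.7, 35 and 35.8 CPM in D1 and 87.5, 84.8 and 83.2 CPM in P. Pola1, the catalytic subunit of DNA polymerase alpha, stood at 36.8, 34.9 and 36.8 CPM in D1 and 75.9, 75 and 73.7 CPM in P. Both sat far above D1 in all 3 P libraries, at 239% of D1 for Prim1 (log2 fold change 1.26 ± 0.032, adjusted p = 5.3e-27) and 206% for Pola1 (log2 fold change 1.04 ± 0.033, adjusted p = 2.3e-24). Their partners in the same complex changed less: Pola2, the regulatory subunit of the polymerase, stood at 36.2, 38.1 and 35.2 CPM in D1 and 30.0, 28.4 and 28.1 CPM in P, a fall to 78.8% (log2 fold change -0.34 ± 0.040, adjusted p = 2.8e-09), and Prim2, the large primase subunit, rose to 112% of D1 (log2 fold change 0.16 ± 0.043, adjusted p = 0.0013). In the knockdowns, these 4 genes lay between 68.1% of D1 (Pola2 in MBNL KD) and 93.9% (Prim1 in MBNL KD), and neither catalytic subunit was higher than D1.

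Pole, the catalytic subunit of the leading-strand polymerase epsilon, was the member that fell furthest in RBPMS KD1 in the fit reported. Rrm2 was close (-0.68), and over the alternatives Pole ran from -0.76 to -0.64 and Rrm2 from -0.71 to -0.65, so their order is not settled. Pole stood at 41.8, 38.9 and 40.2 CPM in D1, 26.8, 22.6 and 25 CPM in RBPMS KD1 and 21.5, 21.3 and 22 CPM in MBNL KD. Both knockdowns lay below all D1 libraries, with 61.5% of D1 in RBPMS KD1 (log2 fold change -0.70 ± 0.048, adjusted p = 3.2e-13) and 53.6% in MBNL KD (log2 fold change -0.90 ± 0.040, adjusted p = 3.4e-18), and the MBNL KD libraries were below the RBPMS KD1 ones. Pole2, its accessory subunit, stood at 7.05, 6.78 and 6.16 CPM in D1, 5.00, 4.76 and 5.00 CPM in RBPMS KD1 and 5.55, 6.05 and 5.39 CPM in MBNL KD (log2 fold change -0.44 ± 0.079, adjusted p = 2.5e-05 in RBPMS KD1, 85.1% of D1 in MBNL KD).

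The polymerase delta genes, which serve the lagging strand, split in P. Pold1, the catalytic subunit, stood at 20.7, 21.3 and 21.4 CPM in D1 and 38.6, 39.4 and 37.8 CPM in P, or 182% of D1 (log2 fold change 0.86 ± 0.040, adjusted p = 1.3e-19). Pold2 fell in P to 79.2% of D1 and Pold3 rose to 118%. Pold3 was also 1 of the 2 members that rose in RBPMS KD1, where it stood at 24.5, 24 and 24.5 CPM against 21, 20.2 and 22.9 CPM in D1 (log2 fold change 0.19 ± 0.047, adjusted p = 0.0012), a shift that cleared the spread of both groups. In MBNL KD it was lower (-0.23 ± 0.051), Pold1 was at 79.8% of D1, and Pold2 was the single polymerase gene on the higher side (0.12 ± 0.049, adjusted p = 0.035), with an overlap of its libraries with D1 and with adjusted p up to 0.26 over the alternatives.

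Replication protein A coats the exposed single strands. Rpa1, its largest subunit, rose to 115% of D1 in P and fell to 85.5% in RBPMS KD1 and 64.5% in MBNL KD. Rpa2 stood at 29.7, 30.1 and 31.3 CPM in D1 and 23.7, 24.6 and 23.9 CPM in P, where it fell to 78.9% (log2 fold change -0.34 ± 0.041, adjusted p = 4.6e-09). The smallest subunit, Rpa3, was at 101% of D1 in P and 100.4% in MBNL KD, neither past the test, and was slightly lower in RBPMS KD1 (-0.14 ± 0.050, adjusted p = 0.02), a call lost under 4 of 16 alternatives with adjusted p up to 0.16. Fen1, the nuclease that trims flaps between Okazaki fragments, stood at 33.8, 33.9 and 35.3 CPM in D1, 35.5, 33.4 and 35.3 CPM in RBPMS KD1 and 17.6, 17 and 16.3 CPM in MBNL KD. The MBNL KD libraries were the lowest, at 49.5% of D1 (log2 fold change -1.01 ± 0.044, adjusted p = 1.4e-18), while RBPMS KD1 overlapped D1 (0.02 ± 0.039, adjusted p = 0.7). The fall in MBNL KD is close to the fold threshold, which it missed under quantile normalization (-0.97), with limma on the authors' normalised values (-0.94), without D1 replicate 3 (-0.9984) and without MBNL KD replicate 3 (-0.99). Tmem258, which overlaps Fen1 in the GRCr8 annotation, was higher in MBNL KD (0.29). Lig1, the ligase that seals the fragments, stood at 105, 102 and 104 CPM in D1, 71.7, 68.1 and 70.1 CPM in RBPMS KD1 and 69.4, 71.1 and 70.2 CPM in MBNL KD. It was lower than D1 in both knockdowns, at 67.6% of D1 in RBPMS KD1 (log2 fold change -0.57 ± 0.029, adjusted p = 7.1e-16) and 67.9% in MBNL KD (log2 fold change -0.56 ± 0.026, adjusted p = 8.3e-18), while in P it was at 130.1%.

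Nucleotide supply held the second largest fall in MBNL KD and the largest rise in RBPMS KD1. Rrm2, the S-phase small subunit of ribonucleotide reductase, stood at 40.6, 39.7 and 43.1 CPM in D1, 34.5, 35.2 and 34.3 CPM in P, 25.2, 25.1 and 26.6 CPM in RBPMS KD1 and 12.4, 12.9 and 12.1 CPM in MBNL KD. The groups did not overlap and stepped down in that order, to 62.4% of D1 in RBPMS KD1 (log2 fold change -0.68 ± 0.041, adjusted p = 2.4e-14) and 30.3% in MBNL KD (log2 fold change -1.72 ± 0.046, adjusted p = 8.2e-24). It overlaps the neighbouring gene Cys1 in GRCr8, which was higher in MBNL KD (0.33). Rrm1, the large subunit, stood at 185, 186 and 185 CPM in D1, 127, 132 and 131 CPM in RBPMS KD1 and 116, 117 and 116 CPM in MBNL KD, which is 70.3% of D1 in RBPMS KD1 (log2 fold change -0.51 ± 0.026, adjusted p = 4.8e-16) and 62.7% in MBNL KD (log2 fold change -0.67 ± 0.022, adjusted p = 1.8e-21). Tyms, thymidylate synthase, was on the higher side throughout. It stood at 113, 113 and 116 CPM in D1, 151, 150.2 and 155 CPM in P, 177, 176 and 179 CPM in RBPMS KD1 and 127, 128 and 127 CPM in MBNL KD. It was higher than D1 in every library of all 3 groups, most in RBPMS KD1 at 155% of D1 (log2 fold change 0.64 ± 0.026, adjusted p = 3.1e-18), and by 0.41 and 0.16 on the log2 scale in P and MBNL KD.

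**Figure D3:**
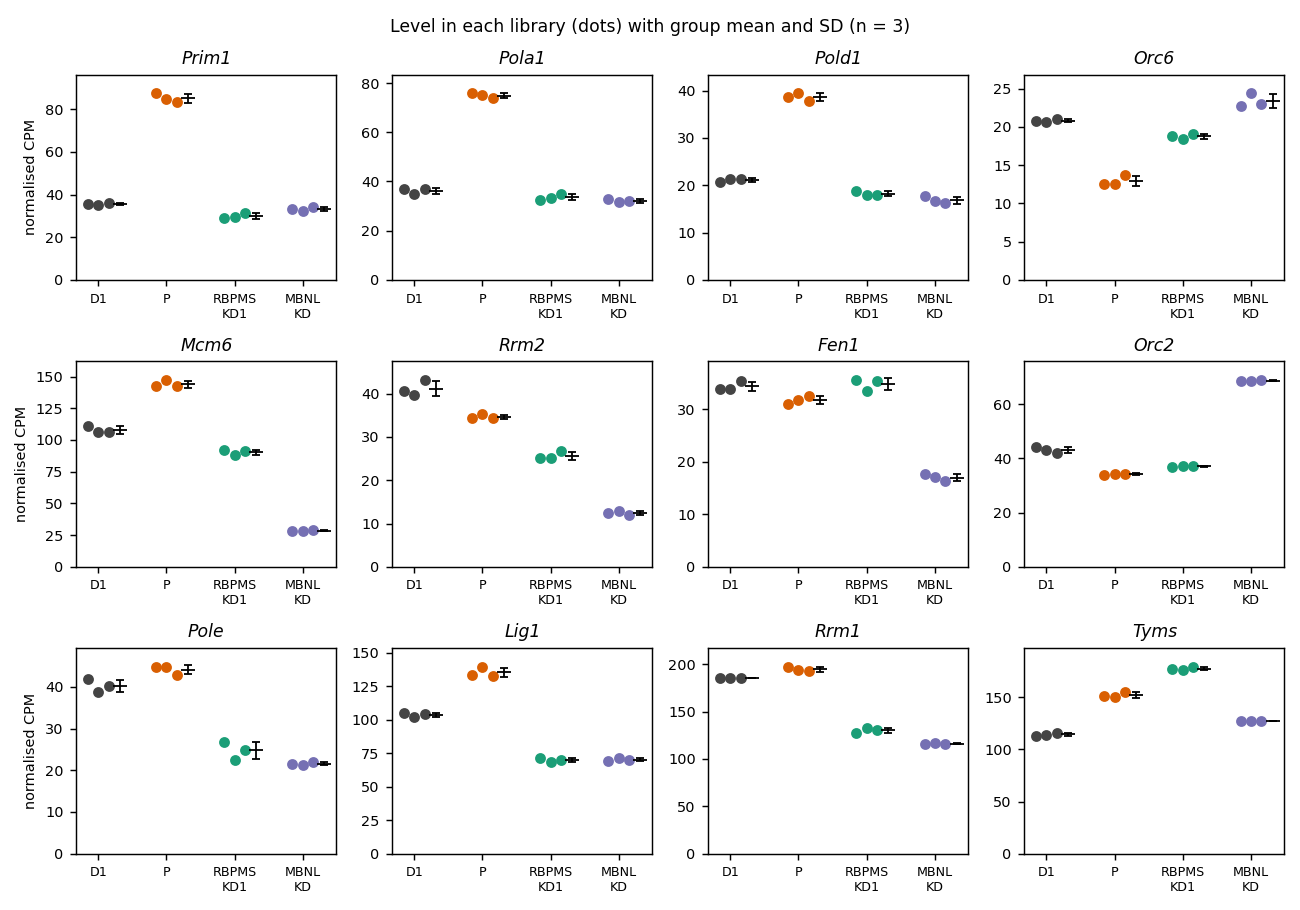
Normalised CPM of 12 members in each library (dots) with the group mean and SD (black, n = 3) for D1, P, RBPMS KD1 and MBNL KD, on linear axes from 0. Prim1, Pola1 and Pold1 are highest in P, Mcm6, Rrm2 and Fen1 lowest in MBNL KD, Orc2 highest in MBNL KD, and Tyms highest in RBPMS KD1.

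Direct comparison of the knockdowns tested whether the members differed between them. At an adjusted p under 0.05, 21 members were higher in RBPMS KD1 than in MBNL KD, 12 were lower and 10 did not pass, which is 48.8% higher and 27.9% lower where 34.5% and 35.1% of the 16111 genes tested were. Past both thresholds 3 members were higher and 0 lower, against 6.03% and 5.88% of all genes, and no member reached a log2 fold change of -1 at any p with edgeR, DESeq2 or limma. The median member log2 fold change was 0.12, beside -0.01 over all genes, and 0.0758 with limma on the normalised values.

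The members that differed most were Mcm6 (log2 fold change 1.67 ± 0.032, adjusted p = 2.1e-27), Rrm2 (log2 fold change 1.05 ± 0.051, adjusted p = 1.5e-17) and Fen1 (log2 fold change 1.04 ± 0.045, adjusted p = 1e-18), all higher in RBPMS KD1, with no overlap between the 3 libraries of either group. With limma on the normalised values Rrm2 gave 0.98 and Fen1 0.98, under the fold threshold. Gins1 was also higher there (log2 fold change 0.69 ± 0.075, adjusted p = 1.9e-09), while Orc2 was lower (log2 fold change -0.89 ± 0.032, adjusted p = 8.5e-21). By role, 5 of the 8 origin recognition and licensing genes were lower in RBPMS KD1 than in MBNL KD and 1, Cdt1, was higher. Of the 6 MCM genes 4 were higher and 1, Mcm4, was lower, and all 3 nucleotide supply genes were higher. For Lig1, which fell in both knockdowns, the 95% interval of the difference ran from -0.06 to 0.06.

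**Figure D4:**
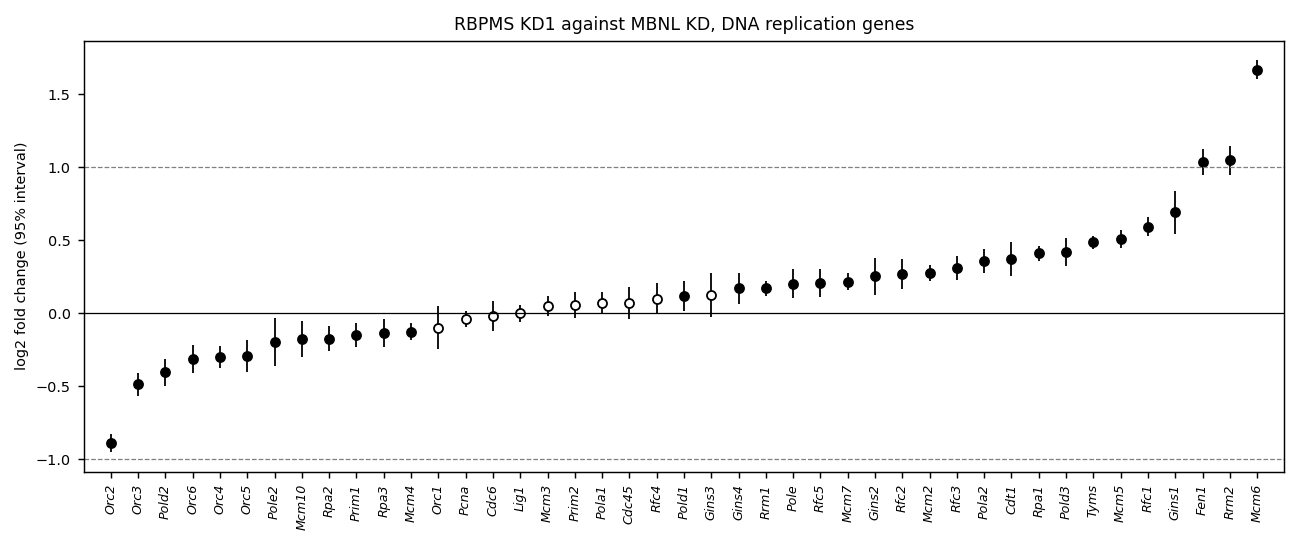
Log2 fold change of RBPMS KD1 against MBNL KD for the 43 genes in order of size, with 95% intervals, 3 libraries a group. Filled dots passed an adjusted p under 0.05 and dashed lines mark 1 in either direction. Mcm6, Rrm2 and Fen1 lie above the upper line and Orc2 is lowest at -0.89.

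The members took 0.193% to 0.196% of all counts in the D1 libraries, 0.255% to 0.261% in P, 0.17% to 0.174% in RBPMS KD1 and 0.154% to 0.155% in MBNL KD, so that the 4 groups did not overlap in this share. Highly counted members such as Rrm1 and Rpa1 weigh most in it. The share is taken over raw library totals and is not scaled for composition. The TMM factors, which make that correction for the levels, were 0.955 to 0.965 in D1 and 1.07 to 1.08 in P. They were 0.967 to 0.976 in RBPMS KD1 and 0.991 to 1.00 in MBNL KD.

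Other replication genes outside the 43 were counted from lists of initiation control, fork protection, chromatin assembly and further nucleotide supply, 44 genes of which 42 were tested. In P, 23 were higher and 8 lower (54.8% and 19.0%, against 40.4% and 37.6% of all genes). In RBPMS KD1, 8 were higher and 27 lower (19.0% and 64.3%, against 29.5% and 29.5%), and in MBNL KD 6 were higher and 30 lower (14.3% and 71.4%, against 33.8% and 33.7%). Past both thresholds Wdhd1, which links polymerase alpha to the helicase, was higher in P: it stood at 29.7, 27.7 and 30.5 CPM in D1 and 142, 146 and 145 CPM in P (log2 fold change 2.29 ± 0.033, adjusted p = 2.9e-34), a larger rise than that of any of the 43 members. Clspn, the adaptor between a stalled fork and its checkpoint kinase, was lower in RBPMS KD1 at 16.2, 16 and 16.6 CPM against 34.5, 31.4 and 33.9 CPM (log2 fold change -1.03 ± 0.046, adjusted p = 2.1e-17). Chaf1a, the large subunit of the histone chaperone that follows the fork, was lower in MBNL KD at 15, 14.5 and 15.3 CPM against 47.3, 47.9 and 46.9 CPM (log2 fold change -1.67 ± 0.040, adjusted p = 8e-25). Between the knockdowns, Chaf1a was higher in RBPMS KD1 (1.43) and Rrm2b, the alternative small subunit of ribonucleotide reductase induced by p53, was lower (-1.11). Rrm2b stood at 15.3, 14.9 and 14.8 CPM in D1 and 26.4, 27.9 and 25.7 CPM in MBNL KD, above D1 where Rrm2 was below it.

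Genes of the E2F and G1/S control list, which govern when these genes are transcribed, gave 8 higher and 9 lower of 20 in P (40.0% and 45.0%), near the 40.4% and 37.6% of all genes. In RBPMS KD1, 3 were higher and 14 lower (15% and 70.0%, against 29.5% and 29.5%), and in MBNL KD 7 were higher and 11 lower (35% and 55.0%, against 33.8% and 33.7%). In P, 4 were lower past both thresholds, or 20.0% against 11.2% of all genes. They were E2f5, an E2F that mainly represses (-2.60 ± 0.046), the kinase inhibitor Cdkn1a (-1.84 ± 0.027), cyclin E1 gene Ccne1 (-1.70 ± 0.046) and the E2F partner Tfdp2 (-1.26 ± 0.047). In MBNL KD the repressor E2f7 (-1.45 ± 0.069), Tfdp2 (-1.36 ± 0.048) and the retinoblastoma gene Rb1 (-1.12 ± 0.043) were lower past both thresholds, and none was higher. In RBPMS KD1 none of the 20 passed both. Between the knockdowns E2f7 (1.08), Tfdp2 (1.20) and Rb1 (1.14) were higher in RBPMS KD1 past both thresholds and E2f5 (-1.14) was lower.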

How the data were processed

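Counts were deposited by the authors as whole numbers per gene symbol, without normalization. Per the study's methods, reads were subsampled to equal depth, aligned with STAR 2.7.11b to mRatBN7.2 and counted with featureCounts. Whether strand was used and whether mates were counted separately is not given in the sources used here. How reads of overlapping genes were assigned is therefore not known. Totals were 80842635 to 90771289 per library, above the read number the methods give after subsampling, so counts were also halved as an alternative. The second deposited table, signal values made by the authors with noisyR and quantile normalization, served only as an alternative.

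Each comparison was fitted to its 6 libraries in R 4.3.3 with edgeR 4.0.16 (filterByExpr, TMM, quasi-likelihood F test, Benjamini-Hochberg adjustment over all genes tested), with thresholds of 0.05 on adjusted p and 1 on absolute log2 fold change. Values after ± are standard errors (log2 fold change over the square root of F), intervals are 95%, and levels are CPM with TMM factors over all 12 libraries. A count of 3, the floor, is 0.0319 to 0.0370 CPM on that scale and covers counting error only. The procedure was tested on simulated data. DESeq2 1.42.0 and limma 3.58.1 gave alternatives, with other normalizations, filters, 1 fit of 12 libraries, a replicate block, an adjusted p of 0.01 and each library left out.

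The members and gene lists were chosen with earlier results of these data known. Values in every library are given for members past both thresholds, the 5 largest rises and falls at adjusted p under 0.05 in each comparison with D1, and the 5 largest differences between the knockdowns. From the lists of other replication genes and of E2F and G1/S control, genes past both thresholds are named. Mcm2, Mcm3, Mcm4, Mcm7 and other members are given by percentages of D1 to complete their groups. The RefSeq tables are of GRCr8, another assembly than that of the counts, and were matched by symbol. The summed level of the leukocyte list is not reported here.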

Additional observations from a re-analysis of the deposited data

How the results depend on the processing

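Each count of members past a threshold in the comparisons with D1 stayed within 1.5 times its value under all alternatives run. Members lower past both thresholds in MBNL KD were 2 instead of 3 under quantile normalization, under limma on the authors' normalised values, and without D1 replicate 3 or MBNL KD replicate 3, Fen1 being the member lost (-0.9984 to -0.9436). Members higher past both in RBPMS KD1 against MBNL KD were 1 with limma on the normalised values (Mcm6), 2 under quantile normalization and 3 when any library was left out. The median member log2 fold change was -0.206 (limma on normalised values) in RBPMS KD1. In MBNL KD it was -0.2712 (quantile normalization), -0.2513 (limma) and -0.3293 to -0.2736 with a library left out, and between the knockdowns 0.0797, 0.0758 and 0.0962 to 0.1617. No scaling moved the median of all genes by over 0.1, and it moved most in P, from 0.0204 to -0.0694 under quantile normalization. The causes were not tested.

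Changes of sign occurred only for members that did not pass an adjusted p under 0.05 in the fit reported. In P, quantile normalization gave 0.036 for Mcm7, -0.005 for Orc1, 4e-04 for Orc4, -0.0064 for Gins2 and -0.1384 for Pole2, and limma on the normalised values gave 0.0345, -0.004, 4e-04, -0.0059 and -0.1363. Mcm7 was 0.0089 with at least 10 counts in every library. In MBNL KD, Rfc4 was 0.026 and 0.0244 under these 2 scalings and Rpa3 was -0.0018 with no filter. Leaving out libraries gave -0.0998 to 0.0272 for Gins1, -0.0034 to 0.0913 for Pole2 and -0.0317 to 0.06 for Rpa3 in P, -0.0119 to 0.0291 for Mcm2 in RBPMS KD1, and -0.0624 to 0.0196 for Rfc4 and -0.0358 to 0.0481 for Rpa3 in MBNL KD.

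Replicate numbers are not described as pairs, and deviations of same-numbered libraries correlated between -0.018 and 0.0585. With the replicate block, 23 members were higher and 12 lower in P, 2 and 32 in RBPMS KD1, 7 and 33 in MBNL KD, and 21 and 12 between the knockdowns. The member gained in RBPMS KD1 was Rfc5 (adjusted p = 0.049). Member calls lost under 7 or more of the 16 alternatives, a stricter threshold of 0.01 among them, were Mcm4 (12) and Gins4 (8) in P, Pola1 (7) in RBPMS KD1, Prim1 (8) and Mcm10 (7) in MBNL KD, and Pole2 (9) and Pold1 (7) between the knockdowns. With 3 libraries a group, small differences such as those of Mcm4 and Gins4 in P cannot be settled.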
